A study of Mus musculus with 2 samples.

Results

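The miR-106b-25 and miR-106a-363 clusters are a pair of related groups of microRNA (miRNA) hairpin genes, and their levels were described here in the embryonic mouse stomach. Their 9 genes were chosen by name and genomic place, not by level, out of the 1973 genes in the count tables. Mir106b, Mir93 and Mir25 form the cluster on chromosome 5, and Mir106a, Mir18b, Mir20b, Mir19b-2, Mir92-2 and Mir363 form the cluster on chromosome X. All 9 had reads in both libraries. In counted reads the chromosome 5 cluster was 59.4-fold ± 17.0 (SD, n = 2) above the chromosome X cluster, with a ratio of 47.4 in replicate 1 and 71.4 in replicate 2.

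A miRNA gene is transcribed as part of a longer RNA, from which a hairpin is cut and then trimmed to a mature strand that guides Argonaute proteins to messenger RNAs. Target choice rests mainly on the seed, bases 2 to 8 of the mature strand. Both clusters are paralogs of the miR-17-92 cluster, which is known from proliferating cells and from the growth of embryonic organs. Their miR-17-type seeds are known to repress Cdkn1a, an inhibitor of the cell cycle, and their miR-25-type seeds to repress Bcl2l11, which promotes cell death. The chromosome 5 cluster is also known for high levels in human gastric tumours.

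The study sequenced RNA under 30 nucleotides by its size label from 1 group of 2 biological replicates. Each was a pool of stomachs taken from healthy B6NCrl embryos of both sexes at embryonic day 16.5, with no treatment, genotype or second age to compare. Replicate 2 was pooled from 41 embryos, and the number behind replicate 1 is not given in the labels. Both pools carry the same donor label, and whether they share litters cannot be told from the labels. A whole stomach mixes cell types, so fewer cells of a type and less RNA per cell cannot be told apart. Replicate 1 held 7734578 reads assigned to genes in the sense direction and replicate 2 held 7983714. Levels are in counts-per-million of these reads (CPM), and 3 counts, used as the one-sided limit for a count of 0, equal 0.388 and 0.376 CPM. Intervals around other values are two-sided exact Clopper-Pearson 95% intervals and cover counting error only, since no molecular identifiers are given in the sources used here.

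The tissue label was checked against marker miRNA genes. All 5 epithelial miR-200 genes had reads and summed to 50884 and 51089 CPM in replicates 1 and 2, and the smooth muscle genes Mir143 and Mir145a to 202084 and 197398 CPM. The stratified epithelial genes Mir203 and Mir205 summed to 28559 and 38234 CPM, the gut epithelial list of 4 genes to 4171 and 3774 CPM, the endocrine gene Mir375 stood at 10291 and 11959 CPM and the endothelial gene Mir126a at 29029 and 29049 CPM. Lists for other cell types were lower, and some were unequal between the libraries. The striated muscle list, with counted reads for 6 of 8 measured genes and Mir133a-1 and Mir133a-2 at 0, summed to 3362 and 202 CPM. Reads placed in several positions are taken to be outside these counts, as described below, so a count of 0 does not show absence. The erythroid list of Mir451a, Mir144 and Mir486 summed to 1240 and 591 CPM, and the hepatocyte gene Mir122 stood at 1821 and 1210 CPM. Leukocyte genes Mir223 and Mir150 summed to 1279 and 1191 CPM.

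The mature sequences show how the clusters are related and which reads can be told apart. RefSeq (GRCm38.p6) held the strand named here for all 9 genes, the arm under which each family is usually known. The counts belong to whole hairpins and do not separate the arms. In the sequences that follow, written 5′ to 3′, capitals mark the seed. The chromosome 5 cluster carries the miR-17 seed in miR-106b and miR-93 and the miR-25 seed in miR-25:
miR-106b-5p (Mir106b): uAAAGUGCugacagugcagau
miR-93-5p (Mir93): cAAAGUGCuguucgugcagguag
miR-25-3p (Mir25): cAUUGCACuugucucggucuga
The chromosome X cluster carries the same seeds, and in addition those of miR-18 and miR-19:
miR-106a-5p (Mir106a): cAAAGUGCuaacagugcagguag
miR-18b-5p (Mir18b): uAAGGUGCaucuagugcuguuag
miR-20b-5p (Mir20b): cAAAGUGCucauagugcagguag
miR-19b-3p (Mir19b-2): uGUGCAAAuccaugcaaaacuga
miR-92a-3p (Mir92-2): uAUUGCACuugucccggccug
miR-363-3p (Mir363): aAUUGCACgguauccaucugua
The nearest relatives on chromosome 14 are shown because their reads bear on the counts of these genes:
miR-17-5p (Mir17): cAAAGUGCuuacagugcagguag
miR-20a-5p (Mir20a): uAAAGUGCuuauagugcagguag
miR-18a-5p (Mir18): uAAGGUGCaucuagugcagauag

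Substitutions between these sequences were read from the 5′ end, with position 1 as the first base. Since a seed group is defined by an identical seed, all differences within it lie outside the seed. From miR-17-5p to miR-106a-5p there was 1 change over 23 bases, U10A. From miR-20a-5p to miR-20b-5p there were 2, U1C and U10C, and from miR-18a-5p to miR-18b-5p there were 2, A18U and A20U. The chromosome 5 genes stood farther from their nearest relatives than these 3 genes did. miR-106b-5p and miR-106a-5p differed at 3 of 21 bases (U1C, G10A and A20G), miR-93-5p and miR-20b-5p at 3 of 23 (G10C, U11A and C13A), and miR-25-3p and miR-92a-3p at 3 of 21. miR-363-3p shared little beyond the seed with miR-25-3p, from which it differed at 13 of 22 bases.

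For 2 of the 9 genes the mature strand also lies in another RefSeq hairpin. miR-19b-3p is made from Mir19b-1 and Mir19b-2, and miR-92a-3p from Mir92-1 and Mir92-2. The search covered RefSeq hairpins only, so whether any of the 9 strands matches elsewhere in the genome was not tested. The whole hairpins are shown with the longest shared stretch in capitals:
Mir92-2 (chromosome X): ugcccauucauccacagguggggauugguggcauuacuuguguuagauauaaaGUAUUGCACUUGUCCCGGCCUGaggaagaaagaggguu
Mir92-1 (chromosome 14): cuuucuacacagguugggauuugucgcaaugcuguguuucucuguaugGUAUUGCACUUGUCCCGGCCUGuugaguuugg
Mir19b-2 (chromosome X): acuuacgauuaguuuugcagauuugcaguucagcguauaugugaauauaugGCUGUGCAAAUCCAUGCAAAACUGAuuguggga
Mir19b-1 (chromosome 14): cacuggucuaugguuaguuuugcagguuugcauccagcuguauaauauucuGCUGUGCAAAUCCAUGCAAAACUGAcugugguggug
The shared stretch was 22 bases for the Mir92 pair and 25 bases for the Mir19b pair, and in neither did it run past the 3′ end of the mature strand. A read that lies within the stretch matches both hairpins. Reads placed in several positions were 25.1% and 25.2% of all reads in replicates 1 and 2 and form a total of their own, and from this they are taken to be absent from the counts of single genes. The levels of Mir19b-2 and Mir92-2 are therefore uncertain and say nothing about how much mature miR-19b or miR-92a the stomach held.

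The clusters also differ in their place in the genome (GRCm38, the assembly that mm10 names). The chromosome 5 cluster spans 498 bases, from 138165321 to 138165818 on the minus strand, and lies in an intron of both protein-coding transcripts of Mcm7 that cover it. Mcm7 encodes a subunit of the helicase that opens DNA for replication. Mir93 and Mir25 also fall in an exon of 1 Mcm7 transcript annotated as a retained intron. The chromosome X cluster spans 875 bases, from 52741693 to 52742567 on the minus strand. Its first gene, Mir106a, overlaps the noncoding transcript Kis2 by at most 5 bases, and the other 5 genes lie outside any gene annotated on that strand.

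Mir93, with the miR-17 seed, was the highest of the 9 genes. It had 50869 reads in replicate 1 and 49729 in replicate 2, or 6577 and 6229 CPM, a mean of 6403 ± 246 CPM (SD, n = 2) that ranked 30 among all genes. Mir106b, the other gene of this seed in the cluster, had 36035 and 39019 reads, or 4659 and 4887 CPM, a mean of 4773 ± 161 CPM that ranked 38. Mir93 was above Mir106b in both libraries, and the gap of 1630 CPM was larger than the summed SDs of 408 CPM. Levels were not divided by gene length, since the mature strands named here are 21 to 23 bases long, although read lengths were not measured.

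Mir25, the last hairpin of the cluster, was much lower than its neighbours. It had 3540 and 3497 reads, or 458 and 438 CPM, a mean of 448 ± 13.9 CPM (SD, n = 2) that ranked 127. Mir106b stood 10.2-fold above it in replicate 1 and 11.2-fold in replicate 2, and Mir93 14.4-fold and 14.2-fold. The 3 genes thus kept 1 order in both libraries without overlap. Mir93 made up 55.1% ± 1.65 of the cluster's reads, Mir106b 41.1% ± 1.74 and Mir25 3.85% ± 0.0870.

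Outside the related clusters, the genes with levels closest to those of the chromosome 5 genes over the 2 libraries were picked by distance in log2(CPM + 1). They were Mir214 and Mir100 for Mir93 (distances 0.078 and 0.21), Mir151 and Mir351 for Mir106b (0.16 and 0.20), and Mir3071 and Mir374b for Mir25 (0.12 and 0.20). With 2 libraries this likeness is one of level and describes no shared pattern.

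The counts of Mir92-2 and Mir19b-2 leave out shared reads, so the order of the genes is given for counted reads. In these, every gene of the chromosome X cluster was lower than every gene of the chromosome 5 cluster in both libraries. Mir92-2, with the miR-25 seed, was the highest in counted reads, with 698 and 421 reads or 90.2 and 52.7 CPM, a mean of 71.5 ± 26.5 CPM (SD, n = 2). Mir106a had 447 and 349 reads, or 57.8 and 43.7 CPM (mean 50.8 ± 9.95). Mir20b, the second gene of the cluster with the miR-17 seed, had 350 and 252 reads, or 45.3 and 31.6 CPM (mean 38.4 ± 9.68). These 3 genes followed each other in the same order in both libraries, but their values overlapped between libraries and the gaps were smaller than the summed SDs.

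Mir363, which has the miR-25 seed and closes the cluster, had 326 and 200 reads, or 42.1 and 25.1 CPM (mean 33.6 ± 12.1, SD, n = 2). It differed from Mir20b by less than the spread between the libraries, and their counting intervals overlapped in each. The last pair of genes was several-fold lower. Mir18b had 50 and 44 reads, or 6.46 and 5.51 CPM, and Mir19b-2 had 37 and 26 reads, or 4.78 and 3.26 CPM. Mir18b was above Mir19b-2 in both libraries, but within each library the counting intervals overlapped, for example 4.80 to 8.52 CPM against 3.37 to 6.59 CPM in replicate 1.

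**Figure D1:**
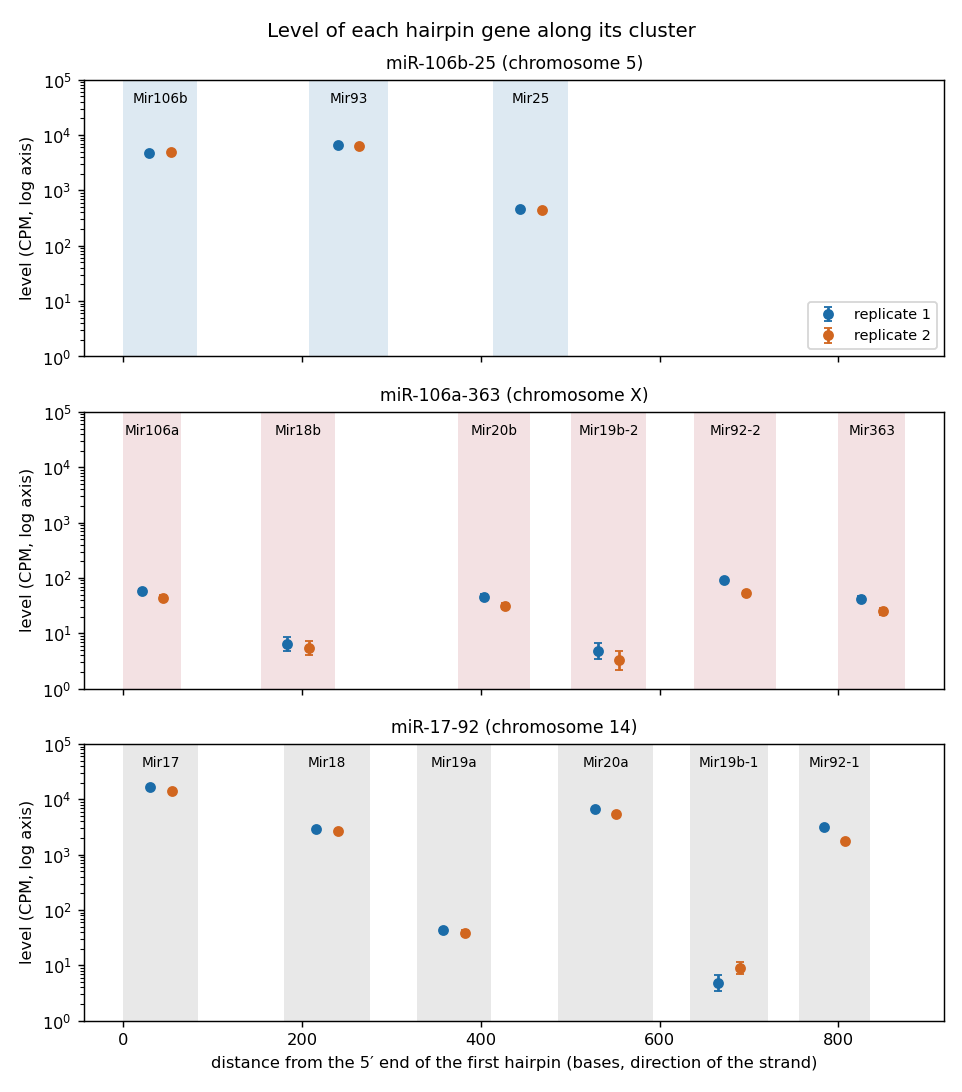
Level of each gene in CPM on a log axis against its distance in bases from the 5′ end of the first hairpin of its cluster, with a shaded band for each hairpin and a point for each library with its counting interval. All 3 genes on chromosome 5 lie above 400 CPM and all 6 on chromosome X below 100 CPM, and Mir18b and Mir19b-2 are the lowest of the 9.

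The make-up of the clusters was compared next, since shares within a cluster do not depend on library size. Mir92-2 took 34.6% ± 2.83 (SD, n = 2) of the chromosome X reads, Mir106a 25.2% ± 2.53, Mir20b 18.9% ± 0.821 and Mir363 16.3% ± 1.14. Mir18b took 3.01% ± 0.555 and Mir19b-2 1.98% ± 0.0517. For each of these 6 genes the interval of the share in replicate 1 overlapped that in replicate 2, on 1908 and 1292 reads of the cluster. The chromosome 5 cluster had 90444 and 92245 reads and narrower intervals. They did not overlap for Mir93 (55.9% to 56.6% and 53.6% to 54.2%) or Mir106b (39.5% to 40.2% and 42.0% to 42.6%), but did for Mir25. The reads of the chromosome 5 cluster lay almost wholly in genes with the miR-17 seed. Those of the chromosome X cluster were spread over genes with the miR-17 seed and genes with the miR-25 seed. Since Mir92-2 counts leave out reads shared with Mir92-1, the share of the miR-25 seed genes on chromosome X is one of placed reads. The whole miR-92a-3p strand lies in the shared stretch, and whether the placed Mir92-2 reads carry the seed was not measured.

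**Figure D2:**
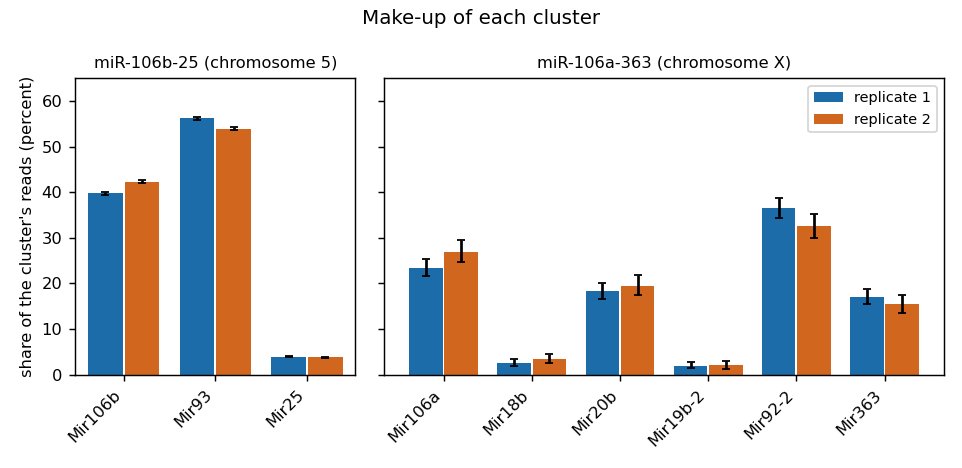
Share of the cluster's reads in percent for each gene, by library, with exact Clopper-Pearson 95% intervals as bars. Mir93 and Mir106b hold all but 3.85% (mean) of the chromosome 5 cluster, and on chromosome X Mir92-2, Mir106a, Mir20b and Mir363 each hold between 15.5% and 36.6%.

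The gap between the clusters was then measured for genes that correspond in order and seed. Mir106b exceeded Mir106a by 80.6-fold in replicate 1 and 112-fold in replicate 2. Mir93 exceeded Mir20b by 145-fold and 197-fold. For the miR-25 seed the gap was smaller, as Mir25 exceeded Mir363 by 10.9-fold and 17.5-fold and, in counted reads, Mir92-2 by 5.07-fold and 8.31-fold. All of these ratios were higher in replicate 2, and in none of them did the counting intervals of the 2 libraries overlap. These ratios were not tested, since a two-sided exact permutation of 2 values against 2 cannot go below 0.333.

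The size of the gap depends on which genes are summed. Over the 3 corresponding genes of each cluster (Mir106b, Mir93 and Mir25 against Mir106a, Mir20b and Mir363) it was 97.9-fold ± 24.5 (SD, n = 2). Without Mir19b-2 and Mir92-2, whose shared reads could not be placed, it was 93.1-fold ± 22.7. As a mean per gene, which sets 3 genes against 6, it was 119-fold ± 33.9. The chromosome 5 cluster was the higher of the pair under each of these. All of them leave out the reads shared with chromosome 14, so the gap with those reads included was not measured.

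Whether reads of an abundant relative that carry a base change enter the counts of a near-identical gene was not tested. The counts of Mir106a were 0.345% and 0.313% of those of Mir17, from which miR-106a-5p differs by U10A. Those of Mir20b were 0.672% and 0.581% of the counts of Mir20a, and those of Mir18b were 0.226% and 0.202% of the counts of Mir18. Without Mir106a and Mir20b the chromosome 5 cluster was 107-fold ± 36.8 above the other 4 genes of the chromosome X cluster.

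The clusters were also set beside the miR-17-92 cluster on chromosome 14, the third paralog, whose 6 genes lie in an exon of Mir17hg. The chromosome 5 cluster held 1.16% ± 0.00985 (SD, n = 2) of the sense reads, with 1.17% (1.162% to 1.177%) in replicate 1 and 1.16% (1.148% to 1.163%) in replicate 2. The chromosome X cluster held 0.0247% (0.0236% to 0.0258%) and 0.0162% (0.0153% to 0.0171%). The chromosome 14 cluster held 2.95% and 2.39%, which was 2.52-fold and 2.07-fold above the chromosome 5 cluster and 120-fold and 148-fold above the chromosome X cluster.

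Grouping genes by seed shows what each locus added in counted reads. The miR-17 seed AAAGUGC occurs in 7 genes of the RefSeq table, which together held 3.27% ± 0.299 (SD, n = 2) of the sense reads. Mir106b and Mir93 supplied 32.3% of this group in replicate 1 and 36.3% in replicate 2, and Mir106a with Mir20b 0.296% and 0.246%. Mir17 and Mir20a supplied 67.4% and 63.4%, and Mir6383 had 0 reads in both libraries. Mir93 alone was close to Mir20a, with 6577 against 6730 CPM in replicate 1 and 6229 against 5432 CPM in replicate 2, so the order of this pair turned between the libraries.

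The miR-25 seed AUUGCAC also occurs in 7 genes, and these held 0.330% ± 0.104 (SD, n = 2) of the sense reads. Mir25 supplied 11.4% and 17.1% of the group, and Mir92-2 with Mir363 3.29% and 3.03%. Mir92-1 supplied 77.7% and 68.0%, and Mir32, Mir92b and Mir367 together 7.63% and 11.9%. Reads shared by Mir92-1 and Mir92-2 are missing here too, so the group's total and the share of Mir25 are those of placed reads. The counts belong to whole hairpins, and whether the placed Mir92-1 and Mir92-2 reads carry the seed was not measured. Mir25 at 448 CPM was above Mir32, which had 160 and 181 CPM, and above Mir92b, which had 147 and 123 CPM. Mir367, known from pluripotent cells, had 0 reads, for which the limit of 3 counts is 0.388 and 0.376 CPM.

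For the seeds found on chromosome X and absent from chromosome 5, most reads were counted in chromosome 14 genes. For the miR-18 seed AAGGUGC, Mir18b supplied 0.226% (0.167% to 0.297%) of the reads in replicate 1 and 0.201% (0.146% to 0.270%) in replicate 2, and Mir18 the rest. For the miR-19 seed GUGCAAA, Mir19b-2 supplied 9.11% (6.50% to 12.3%) and 6.44% (4.25% to 9.29%). That group held only 0.00515% ± 0.000134 (SD, n = 2) of the sense reads over Mir19a, Mir19b-1 and Mir19b-2. For miR-19b the count leaves out shared reads, so this low level is one of placed reads. Whether the placed Mir19b-1 and Mir19b-2 reads carry the seed was not measured.

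**Figure D3:**
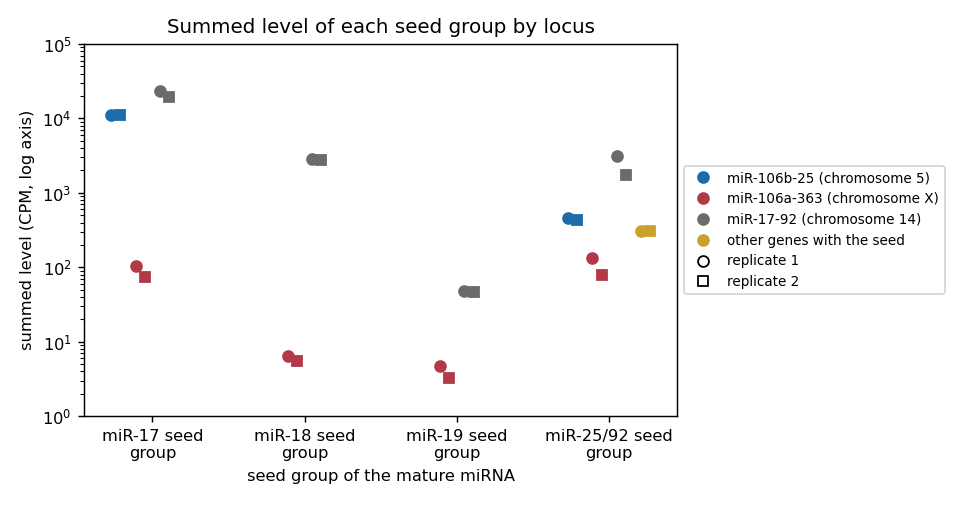
Summed level in CPM on a log axis of the genes that share a seed, by locus (colour) and library (circle for replicate 1, square for replicate 2); genes at 0 are not drawn. In counted reads the chromosome X genes lie lowest in each of the 4 seed groups, at 103 and 75.3 CPM for the miR-17 seed against 11236 and 11116 CPM on chromosome 5.

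The last comparison asked whether the clusters differed between the libraries. For the 289 genes that averaged at least 10 CPM, the reads of both libraries were compared by an exact binomial test, two-sided, with Benjamini-Hochberg adjustment and with scaling by the trimmed mean of M values, TMM. This test compares these 2 libraries and holds no spread among embryos. Of the 9 genes 7 reached that level, and Mir18b and Mir19b-2 did not. None of the 7 differed at an adjusted p under 0.05 and at least 2-fold, against 7.96% of all genes tested, and the count was also 0 with DESeq2 size factors. All 7 passed with no minimum fold, as did 76.1% of all genes tested, since at this depth small folds exceed counting error, and all 7 had an unadjusted p under 0.05.

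Under that rule the clusters moved in opposite directions. The 4 tested genes of the chromosome X cluster were higher in replicate 1, against 38.4% of all genes tested, and the 3 genes of the chromosome 5 cluster were lower, against 37.7%. The median log2 ratio of replicate 1 over replicate 2 was 0.45 for the former and -0.12 for the latter, beside 0.02 over all 289 genes. Scaling by total sense reads raised the median of all genes to 0.21, and the split then became 5 higher and 1 lower, against 60.9% and 20.4% of all genes. Mir93 and Mir25 turned to positive ratios under that scaling, and Mir25 no longer passed. The direction for the chromosome 5 cluster therefore depends on the scaling, while the chromosome X genes were higher in replicate 1 under each scaling tried.

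Mir92-2 was 1.51-fold higher in replicate 1 (log2 ratio 0.59, interval 0.42 to 0.77, exact binomial test with adjusted p = 3.97e-11) and was the only one of the 7 past 1.5-fold, against 20.1% of all genes. With DESeq2 size factors its log2 ratio of 0.582 lay just under 1.5-fold. The counts of Mir92-2 leave out reads shared with Mir92-1, so these are ratios of placed reads. Mir363 was 1.48-fold higher (log2 ratio 0.57, interval 0.31 to 0.83, adjusted p = 1.71e-05), and with total-read scaling its log2 ratio of 0.75 also lay past 1.5-fold. Mir20b followed at a log2 ratio of 0.34 (interval 0.10 to 0.58, adjusted p = 0.00692). Mir106a had a log2 ratio of 0.22 (adjusted p = 0.0438), which did not pass with DESeq2 size factors (adjusted p = 0.0560). Mir18b and Mir19b-2, which were not tested, had log2 ratios of 0.05 and 0.36 with intervals that include 0.

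On chromosome 5, under TMM scaling, Mir106b fell by 0.25 on the log2 scale in replicate 1 (interval -0.27 to -0.23, exact binomial test with adjusted p = 7.44e-125). Mir93 and Mir25 had log2 ratios of -0.10 and -0.12. Summed over the cluster, the log2 ratio was -0.16 (interval -0.18 to -0.15) for chromosome 5 and 0.43 (interval 0.32 to 0.53) for chromosome X. In CPM, the sums of the marker lists for striated muscle, erythroid cells and hepatocytes, given above, were higher in replicate 1 as the chromosome X genes were. So were those for smooth muscle, gut epithelium and leukocytes, by smaller ratios, while the other lists were not. With total-read scaling, which CPM uses, 71.3% of all tested genes had a ratio above 0. Under TMM, Mir206 had 24624 and 797 reads (log2 ratio 4.81), and Mir133b, Mir499 and Mir208b had log2 ratios of 3.10, 2.31 and 0.12. Within the erythroid list Mir451a had 8396 and 3336 reads (log2 ratio 1.20), while Mir144 had 1073 and 1273 (log2 ratio -0.38) and Mir486 had 122 and 106 (log2 ratio 0.07). The part of these cells in the difference was not tested.

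Ratios of a chromosome X gene to its closest relative on chromosome 14 were set beside the ratio of the chromosome 5 to the chromosome X cluster, which was 1.51 times as high in replicate 2 as in replicate 1. Mir17 exceeded Mir106a by 290-fold (264 to 319) in replicate 1 and 320-fold (288 to 356) in replicate 2. Mir20a exceeded Mir20b by 149-fold and 172-fold, Mir18 exceeded Mir18b by 442-fold and 496-fold, and Mir92-1 exceeded Mir92-2 by 34.7-fold and 33.1-fold. In these 4 pairs the counting intervals overlapped and the ratio moved by at most 1.16-fold between the libraries. The exception was the Mir19b pair, where Mir19b-1 exceeded Mir19b-2 by 1.03-fold and 2.77-fold, on 37 and 26 reads of Mir19b-2. Mir363 has no such near-identical relative, as its mature strand differs from miR-92a-3p at 11 of 21 bases. Mir92-1 exceeded it by 74.3-fold (66.6 to 83.1) in replicate 1 and 69.6-fold (60.6 to 80.5) in replicate 2, so the intervals overlapped. Those of Mir25 over Mir363, at 10.9-fold and 17.5-fold, did not. Summed over the clusters, chromosome 14 exceeded chromosome X by 120-fold (114 to 125) in replicate 1 and 148-fold (140 to 156) in replicate 2. That ratio was 1.24 times as high in replicate 2, and its counting intervals did not overlap. In counted reads Mir92-1, like Mir92-2 and Mir363, was higher in replicate 1, with a log2 ratio of 0.66. The log2 ratios of Mir25, Mir32 and Mir92b, which share the seed of these genes, were -0.12, -0.36 and 0.08.

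**Figure D4:**
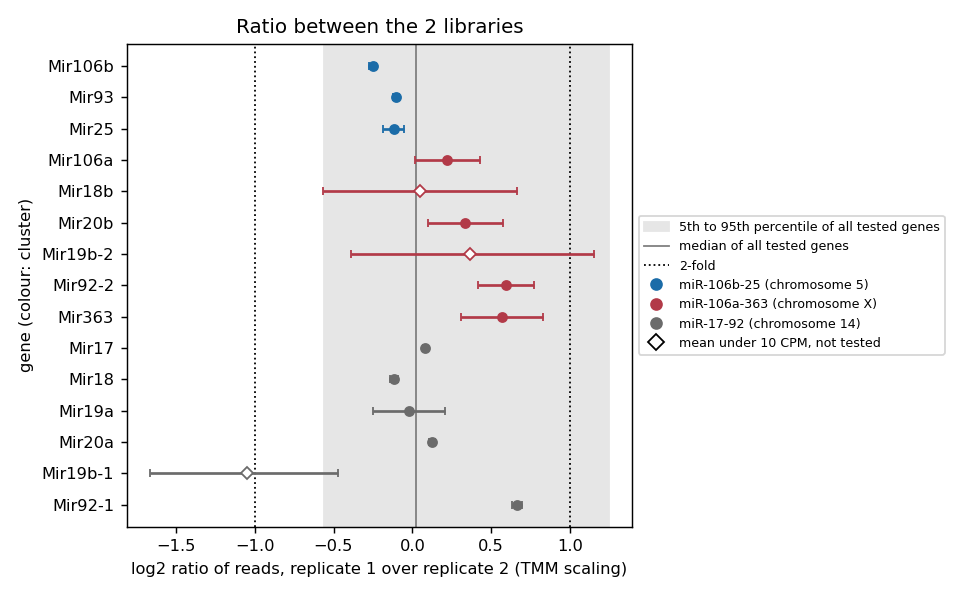
Log2 ratio of reads in replicate 1 over replicate 2 under TMM scaling, with exact 95% counting intervals; the grey band holds the 5th to 95th percentile of the 289 genes tested, the grey line their median and the dotted lines 2-fold. The 3 chromosome 5 genes lie between -0.25 and -0.10 and the 6 chromosome X genes between 0.05 and 0.59, all within the band; with total-read scaling Mir93 and Mir25 lie above 0.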

How the data were processed

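Small RNA was measured in 2 libraries of 1 group. The authors deposited raw read counts per gene, aligned to mm10 and counted on the GENCODE M4 annotation per the notes deposited with the files; the sources used here do not name the aligner, counter or trimming. Each table gives unstranded, sense and opposite-strand counts, plus 4 summary totals. The sense strand (the column with the larger total) was used, and the 9 genes had 0 reads on the other. Summary totals were left out of library sizes: unmapped reads were 21.3% and 20.3% of all reads, and reads outside counted genes 2.81% and 3.11%.

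Symbols and places came from GENCODE M21 (GRCm38), which matched 1894 of 1973 identifiers, and sequences from RefSeq GRCm38.p6. TMM factors came from edgeR 4.0.16 under R 4.3.3 over the genes averaging at least 10 CPM, alternative size factors from DESeq2 1.42.0, and other values from Python 3.11.15 with scipy 1.17.1. Log2 ratios used 0.5 added to each count. Calls needed an adjusted p under 0.05 and 2-fold.

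The genes and lists were chosen with earlier results of these data known. Named genes were the 9, the chromosome 14 cluster, Mir32, Mir367, the 2 genes nearest in level to each chromosome 5 gene, and the markers; Mir92b and Mir6383 were added by their seed. The listed markers Mir1a-2 and Mir142 had no row of their own, and Mir486a was matched through its symbol Mir486. Alternatives were strand, denominator, scaling, filter, fold, pseudocount, gene choice and each library left out.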

Additional observations from a re-analysis of the deposited data

How the results depend on the processing

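No paired analysis was possible because the labels give a single group. The chromosome 5 cluster held 1.13% of reads when strand was ignored and 0.576% of all reads of the library, and the chromosome X cluster 0.0101% of all reads; these use larger totals. With either library left out the shares ran from 1.16% to 1.17% and from 0.0162% to 0.0247%, and the ratio of the clusters from 47.4 to 71.4. That ratio was 93.1 without Mir19b-2 and Mir92-2 and 97.9 over 3 corresponding genes, and, in alternatives chosen after seeing the data, 107 without Mir106a and Mir20b, 119 as a mean per gene and 54.3 per base of hairpin.

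Of the 9 genes, the number called between the libraries was 0 in the main test, 7 with no minimum fold and 1 at 1.5-fold, and it was 0 under the other scalings, filters and strand choice. Calls over all genes went from 23 to 55 without a filter, 49 at a mean of 1 CPM, 58 at 1.5-fold and 220 with no minimum fold. Under total-read scaling the log2 ratio of Mir93 was 0.078 and that of Mir25 was 0.063, reversed from the TMM values; the cause was not tested. Low counts limit Mir18b and Mir19b-2, each with at most 50 reads in a library, and the count of Mir19b-2 also leaves out reads shared with Mir19b-1.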
